A study of Homo sapiens with 6 samples.

Results

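Notch signalling genes were read on arrays of DMS-53 cells, an established human small cell lung cancer line, after exposure to an iron chelator. The 10 genes were the receptors NOTCH1, NOTCH2 and NOTCH3, the ligands DLL1, DLL3, DLL4, JAG1 and JAG2, and the target repressors HES1 and HEY1, out of 19775 genes with a probe set of a single symbol. Every probe set whose single annotated symbol was one of the 10 was taken. They held 28 of the 54675 probe sets, and 21 of the 41006 that passed the filter on low values, with at least 1 for each gene. Cells were kept for 24 h with Dp44mT at 25 µM, with desferrioxamine (DFO) at 250 µM, or in RPMI control medium without a chelator, with 2 arrays per condition. DFO is a hydrophilic siderophore that binds iron. Dp44mT is a lipophilic thiosemicarbazone that binds iron and copper. The study's design text ties the larger DFO dose to its weak passage through membranes, so the chelators were not compared at matched doses. It names no question about Notch. The labels number the arrays of each condition as set 1 and set 2 without saying what a set shares or whether the cultures were separate, and the spread behind each p-value may therefore be technical. In bulk RNA, fewer cells expressing a gene and less RNA per cell cannot be told apart.

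In the Notch pathway, a ligand of the Delta-like or Jagged family on one cell binds a receptor on its neighbour. ADAM proteases and gamma-secretase then release the receptor's intracellular domain, which joins the DNA-binding protein RBPJ and Mastermind-like coactivators and switches on genes such as HES1 and HEY1, whose products repress transcription. In small cell lung cancer, Notch activity is known for opposing neuroendocrine differentiation, and DLL3, a ligand that inhibits Notch within the cell that makes it, is typical of neuroendocrine tumours.

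HEY1 was the member that changed: both of its probe sets rose under both chelators, about 6-fold, with log2 differences from control of 2.63 and 2.65 in Dp44mT and of 2.68 and 2.48 in DFO. No probe set of the other 9 genes passed an adjusted p under 0.05 in either chelator. Below that threshold, the main probe sets of JAG1 were higher and those of JAG2 and DLL3 lower than control on every chelator array, and HES1 was higher on both DFO arrays but not on both Dp44mT arrays. Differences are in log2(intensity + 16) after quantile normalization, a scale that understates changes of dim probe sets, and standard errors (SE) and adjusted p-values are limma's over all 41006 probe sets.

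The arrays differed in brightness before normalization, with median deposited intensities of 83.6 and 49.9 on the Dp44mT arrays, 85.5 and 63.0 on the DFO arrays, against 88.9 and 88.8 on the control arrays. The chelator arrays of set 2 were the dimmest and lay at 129 (Dp44mT) and 74.2 (DFO) on the first principal component, against values between -93.9 and -0.87 for the other arrays. Of the genes that report iron depletion, VEGFA and NDRG1 rose under both chelators by 2.02 to 2.49 (adjusted p from 0.0174 to 0.0303). The transferrin receptor TFRC differed from control by 0.70 in Dp44mT (adjusted p = 0.126) and by 0.84 in DFO (adjusted p = 0.200). The 12 neuroendocrine markers measured all lay above the filter.

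**Figure D1:**
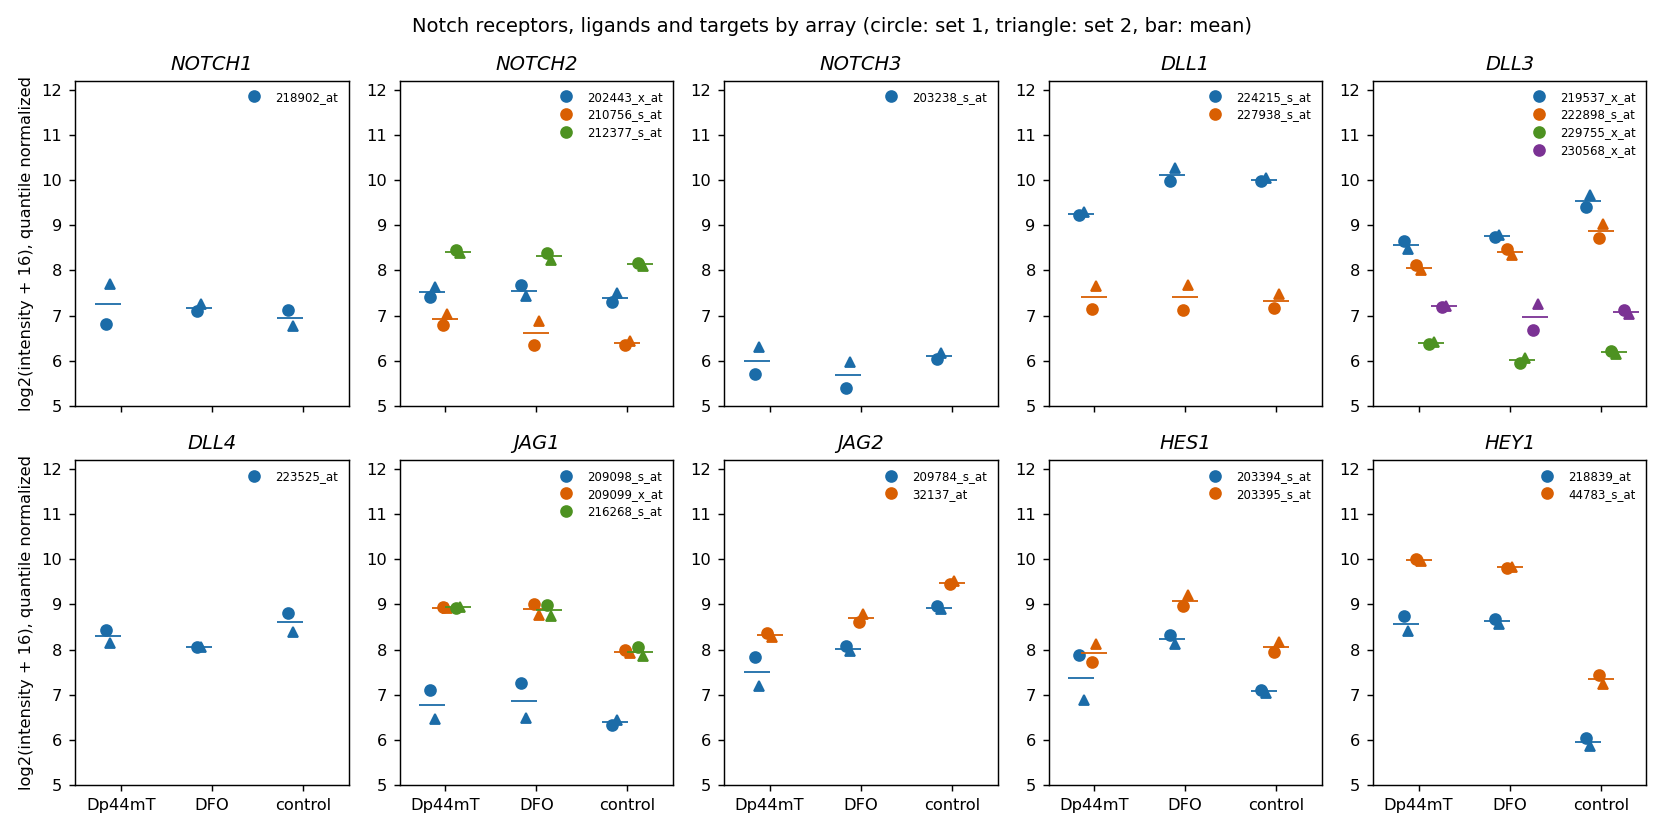
Normalized log2 intensity (vertical axis) of the 21 Notch probe sets above the filter, by gene (panels) and condition (horizontal axis); circles are set 1, triangles set 2 and bars the mean of the 2 arrays. HEY1 sits between 8.41 and 10.001 on the chelator arrays and between 5.87 and 7.44 on the control arrays, each probe set without overlap, and the receptor panels show no gap of that size.

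For Dp44mT against control, 2 of the 21 Notch probe sets were called, both higher, against a background of 1.63% of all probe sets tested. For DFO against control, the same 2 probe sets were called, against a background of 0.588%. Both comparisons use the same 2 control arrays. The groups were fully separated for more of the 21 Notch probe sets than were called, and several of these belong to the same gene. Both Dp44mT arrays were above both control arrays for 9 of the 21 (28.5% of all probe sets) and below them for 5 (32.8%). Both DFO arrays were above both control arrays for 8 of the 21 (17.0%) and below them for 7 (27.8%). The median difference of the 21 probe sets was 0.13 in Dp44mT and 0.16 in DFO, against 0.01 and -0.03 over all probe sets tested. The 21 ranged from -1.42 to 2.65 in Dp44mT and from -0.90 to 2.68 in DFO. At an unadjusted p under 0.05 there were 9 of the 21 Notch probe sets in each comparison, against 21.5% of all probe sets in Dp44mT and 11.1% in DFO. The split of calls over all probe sets depended on scaling: 439 higher and 231 lower in Dp44mT, against 15 and 24 on the deposited scale and 183 and 180 with array medians subtracted, and 233 higher and 8 lower in DFO, against 24 and 7 on the deposited scale.

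**Figure D2:**
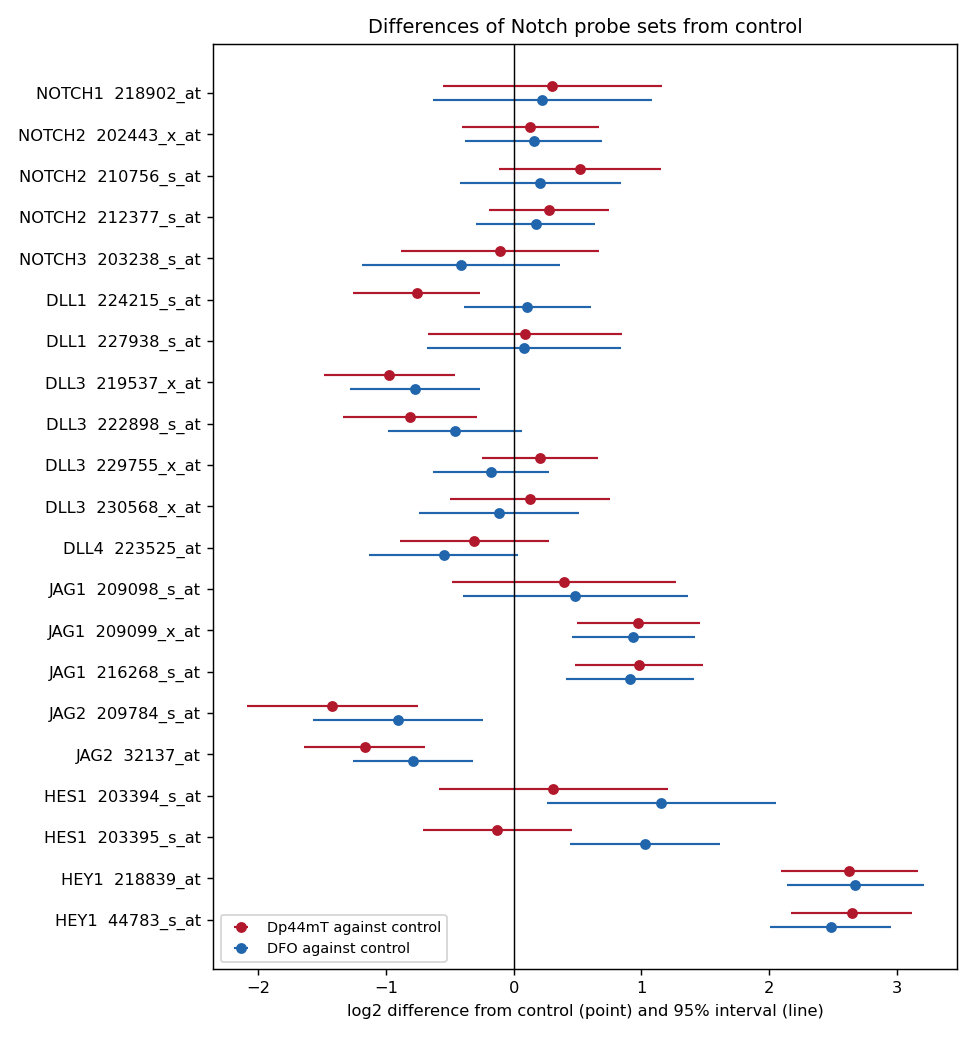
Log2 difference from control (horizontal axis) of the 21 Notch probe sets above the filter (rows), with limma's 95% interval as a line; red is Dp44mT and blue is DFO. Only the 4 HEY1 values lie above 2, JAG2 lies on the negative side in both chelators, and HES1 is the gene whose Dp44mT and DFO points lie farthest apart.

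No receptor probe set passed the test in either chelator. NOTCH2, which had the most probe sets among them, read 8.46 and 8.38 on the Dp44mT arrays, 8.39 and 8.24 on the DFO arrays, against 8.18 and 8.11 on the control arrays with its brightest probe set, 212377_s_at. All chelator arrays were above both control arrays there, by 0.28 in Dp44mT (SE 0.19, adjusted p = 0.402) and 0.17 in DFO (SE 0.19, adjusted p = 0.770). The other NOTCH2 probe sets above the filter gave 0.13 and 0.52 in Dp44mT and 0.16 and 0.21 in DFO, and none of them passed the threshold. On the deposited scale without normalization the sign of 212377_s_at turned, to -0.37 in Dp44mT and -0.11 in DFO. NOTCH1, the best studied receptor of the family, read 6.81 and 7.70 on the Dp44mT arrays, 7.10 and 7.25 on the DFO arrays, against 7.13 and 6.76 on the control arrays (218902_at). Its groups overlapped, and its Dp44mT difference was -0.32 in set 1 and 0.93 in set 2. NOTCH3, best known from vascular smooth muscle, differed by -0.11 in Dp44mT and -0.41 in DFO (203238_s_at, SE 0.31). The 95% intervals of these receptor differences ran from -0.88 to 1.16 in Dp44mT and from -1.19 to 1.08 in DFO, so they reached a 2-fold change (a log2 difference of 1) for NOTCH1 in both chelators and for NOTCH3 in DFO, and the interval of NOTCH2 210756_s_at reached it in Dp44mT (-0.11 to 1.15). Of the receptors, 1 probe set each of NOTCH1, NOTCH2 and NOTCH3 lay below the filter and was not tested.

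Among the ligands, JAG1 and JAG2, the Jagged ligands that activate Notch receptors in trans, lay on opposite sides of control. Because their promoters could be read from RefSeq, the 250 bases before each start are printed for the pair (GRCh38.p14; JAG1 chr20:10674000-10674249 and JAG2 chr14:105168777-105169026, both on the minus strand), with the hypoxia response core ACGTG or GCGTG on either strand in capitals, since iron chelation is known to stabilize hypoxia-inducible factors.
JAG1: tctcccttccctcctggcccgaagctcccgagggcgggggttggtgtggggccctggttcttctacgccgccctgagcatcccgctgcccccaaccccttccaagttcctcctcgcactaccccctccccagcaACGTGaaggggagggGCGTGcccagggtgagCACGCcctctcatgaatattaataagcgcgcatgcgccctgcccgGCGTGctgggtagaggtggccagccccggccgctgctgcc
JAG2: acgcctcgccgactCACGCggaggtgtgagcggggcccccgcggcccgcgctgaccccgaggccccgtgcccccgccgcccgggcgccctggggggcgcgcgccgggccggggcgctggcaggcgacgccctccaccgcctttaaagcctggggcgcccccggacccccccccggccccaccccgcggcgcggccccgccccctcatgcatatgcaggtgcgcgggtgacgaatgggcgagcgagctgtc
The JAG1 window held 4 matches, at 116, 101, 85 and 40 bases before the start, and the JAG2 window 1, at 236 bases. The core was found in 43.1% of 27305 RefSeq promoter windows of the same length, and a match of letters is a description, not a binding site. Neither window held the RBPJ core TGGGAA on either strand, which 21.1% of the promoter windows held. The NOTCH1 window held 2 hypoxia response cores, those of NOTCH3 and DLL4 held 1 each and that of NOTCH2 held 0.

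JAG1 read 8.95 and 8.91 on the Dp44mT arrays, 9.01 and 8.78 on the DFO arrays, against 7.98 and 7.93 on the control arrays with its brightest probe set, 209099_x_at. Every chelator array was higher than every control array, and the Dp44mT and DFO arrays overlapped each other. The difference from control was 0.98 in Dp44mT (1.97-fold, SE 0.19, adjusted p = 0.0776) and 0.94 in DFO (1.92-fold, SE 0.19, adjusted p = 0.164). A second JAG1 probe set, 216268_s_at, gave 0.98 (adjusted p = 0.0831) and 0.91 (adjusted p = 0.192). The third, 209098_s_at, gave 0.39 and 0.48, and its chelator arrays of set 2 (6.46 in Dp44mT, 6.48 in DFO) were level with the control arrays (6.32 and 6.45) while those of set 1 read 7.10 and 7.26. The remaining 3 JAG1 probe sets lay below the filter.

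JAG2 read 8.36 and 8.28 on the Dp44mT arrays, 8.61 and 8.79 on the DFO arrays, against 9.45 and 9.53 on the control arrays with probe set 32137_at. The order was the same on its other probe set, 209784_s_at, with 7.83 and 7.18 in Dp44mT, 8.07 and 7.98 in DFO and 8.96 and 8.89 in control. The Dp44mT arrays were lowest, the DFO arrays intermediate and the control arrays highest on both, with no overlap between any groups. The differences from control were -1.17 (SE 0.19, adjusted p = 0.0563) and -1.42 (SE 0.27, adjusted p = 0.0721) in Dp44mT and -0.79 (SE 0.19, adjusted p = 0.227) and -0.90 (SE 0.27, adjusted p = 0.316) in DFO. The call for 32137_at in Dp44mT depends on how many probe sets are tested: it passed with a filter at the 50th percentile (adjusted p = 0.0363) and with 1 probe set per gene (adjusted p = 0.0377). With both set 2 chelator arrays left out, a single array per chelator remained and only the control arrays gave a spread. The Dp44mT differences were then -1.16 for JAG2 32137_at, -1.14 for JAG2 209784_s_at and 1.04 for JAG1 209099_x_at.

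DLL3, the inhibitory ligand, had 4 probe sets above the filter, with differences that were all negative in DFO and of both signs in Dp44mT. The brightest, 219537_x_at, read 8.66 and 8.48 on the Dp44mT arrays, 8.74 and 8.79 on the DFO arrays, against 9.40 and 9.68 on the control arrays. All chelator arrays were below both control arrays, by -0.97 in Dp44mT (SE 0.20, adjusted p = 0.0866) and -0.77 in DFO (SE 0.20, adjusted p = 0.266). The second, 222898_s_at, was also lower without overlap, by -0.81 (adjusted p = 0.119) and -0.46 (adjusted p = 0.517). The other probe sets, 230568_x_at and 229755_x_at, differed by 0.13 and 0.21 in Dp44mT and by -0.11 and -0.18 in DFO.

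DLL1, a Delta-like ligand that activates Notch in neighbouring cells, read 9.22 and 9.29 on the Dp44mT arrays, 9.98 and 10.27 on the DFO arrays, against 9.99 and 10.04 on the control arrays with probe set 224215_s_at. Only the Dp44mT arrays stood below control, by -0.76 (SE 0.20, adjusted p = 0.124), while the DFO arrays overlapped control and differed by 0.11 (SE 0.20, adjusted p = 0.860). The second DLL1 probe set, 227938_s_at, did not show this, with 0.09 in Dp44mT and 0.08 in DFO. DLL4, the ligand best known from sprouting blood vessels, read 8.44 and 8.14 on the Dp44mT arrays, 8.06 and 8.05 on the DFO arrays, against 8.80 and 8.40 on the control arrays. Its DFO arrays were below both control arrays, by -0.55 (SE 0.23, adjusted p = 0.484), and its Dp44mT arrays overlapped them, with -0.31 (SE 0.23, adjusted p = 0.439).

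HEY1, a basic helix-loop-helix repressor induced by Notch, read 10.001 and 9.97 on the Dp44mT arrays, 9.81 and 9.83 on the DFO arrays, against 7.44 and 7.24 on the control arrays with probe set 44783_s_at. Its other probe set, 218839_at, read 8.75 and 8.41 in Dp44mT, 8.68 and 8.57 in DFO and 6.03 and 5.87 in control. Every chelator array was more than 2 log2 units above every control array on both probe sets. In Dp44mT the increase was 2.65 (6.27-fold, SE 0.19, adjusted p = 0.0110) for 44783_s_at and 2.63 (6.19-fold, SE 0.21, adjusted p = 0.0150) for 218839_at. In DFO it was 2.48 (5.59-fold, SE 0.19, adjusted p = 0.0177) and 2.68 (6.39-fold, SE 0.21, adjusted p = 0.0177). On the deposited linear scale, 44783_s_at read 1123 and 536 on the Dp44mT arrays, 1215 and 641 on the DFO arrays, against 194 and 163 on the control arrays. The chelators did not differ from each other beyond the spread: Dp44mT minus DFO was 0.17 for 44783_s_at (95% interval -0.31 to 0.64) and -0.05 for 218839_at (-0.58 to 0.49).

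The size of the HEY1 increase held with 1 array left out, while its call depended on which array was missing. The Dp44mT call held on both probe sets without either DFO array. Leaving out 1 array at a time gave 2.46 to 2.88 in Dp44mT and 2.33 to 2.78 in DFO over both probe sets. Without either Dp44mT array (for Dp44mT), either DFO array (for DFO) or either control array, the increase no longer passed the threshold, with adjusted p from 0.0817 to 0.352. In DFO the call also ended without Dp44mT replicate 1 (adjusted p = 0.0512 for 218839_at and 0.0561 for 44783_s_at) and, for 44783_s_at, without Dp44mT replicate 2 (adjusted p = 0.0554). On the deposited scale without normalization, where the median of all probe sets was -0.46 in Dp44mT and -0.30 in DFO, the increases were 2.13 and 2.03 in Dp44mT (adjusted p = 0.148 and 0.152) and 2.53 and 2.21 in DFO (adjusted p = 0.291 and 0.454). With both set 2 chelator arrays left out, only the control arrays gave a spread, and the 4 increases were 2.57 to 2.97.

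HES1, the other basic helix-loop-helix target, is shown by its promoter because 2 RBPJ cores lie close together in it. The 250 bases before its start (RefSeq, GRCh38.p14, chr3:194135898-194136147, plus strand) are printed with the RBPJ core TGGGAA and the hypoxia response core ACGTG or GCGTG, on either strand, in capitals.
HES1: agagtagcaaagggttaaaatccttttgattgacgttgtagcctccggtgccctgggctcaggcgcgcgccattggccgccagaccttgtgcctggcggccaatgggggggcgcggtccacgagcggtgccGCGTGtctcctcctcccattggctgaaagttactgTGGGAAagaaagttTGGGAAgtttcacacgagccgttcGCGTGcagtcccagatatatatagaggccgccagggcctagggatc
The RBPJ cores begin at 84 and 70 bases before the start and the hypoxia response cores at 119 and 46, and no 2 of them overlap. The window also held 3 matches of the N box CACNAG, a site class recognized by HES repressors, which 32% of promoter windows held. Promoter windows of DLL1, DLL3 and HEY1 are not shown.

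HES1 read 7.73 and 8.13 on the Dp44mT arrays, 8.97 and 9.20 on the DFO arrays, against 7.95 and 8.16 on the control arrays with its brightest probe set, 203395_s_at. Its second probe set, 203394_s_at, read 7.89 and 6.87 in Dp44mT, 8.32 and 8.14 in DFO and 7.10 and 7.05 in control. Both DFO arrays were the highest on both probe sets, and the Dp44mT arrays overlapped control on both. In DFO the difference was 1.03 (2.04-fold, SE 0.23, adjusted p = 0.208) and 1.16 (2.23-fold, SE 0.36, adjusted p = 0.339). In Dp44mT it was -0.13 (SE 0.23, adjusted p = 0.746) and 0.31 (SE 0.36, adjusted p = 0.597), and on 203394_s_at the sets disagreed, with 0.79 in set 1 and -0.17 in set 2. Probe set 203393_at of HES1 lay below the filter.

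Dp44mT and DFO were also compared directly. None of the 21 Notch probe sets was called by limma, against a background of 0% of all probe sets. At an unadjusted p under 0.05, 2 of the 21 and 1368 of all 41006 (3.34%) passed. Those 2 were HES1 203395_s_at, at -1.15 (95% interval -1.74 to -0.57, unadjusted p = 0.0034 in limma, adjusted p = 0.969), and DLL1 224215_s_at, at -0.87 (-1.37 to -0.37, unadjusted p = 0.0059 in limma, adjusted p = 0.969). Both were lower on both Dp44mT arrays than on both DFO arrays. The set number was not in this model, although deviations of same-numbered Dp44mT and DFO arrays correlated at 0.83, which can widen the intervals between the chelators. In all, 3 of the 21 had both Dp44mT arrays above both DFO arrays (13.0% of all probe sets) and 7 had them below (12.4%). The 21 ranged from -1.15 to 0.38 with a median of 0.01.

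The direction of the differences was also read between arrays of the same set number. The labels do not say what a set shares, so this pairing goes by number only. Deviations of same-numbered chelator and control arrays correlated at -0.33 for Dp44mT and -0.23 for DFO. In Dp44mT, 17 of the 21 Notch probe sets had the same sign in set 1 and set 2, and in DFO 15 did. The same share was not counted over all probe sets, so these counts are not read as a trait of the members. Full separation from control, which forces the same sign, was common: 28.5% of all probe sets above and 32.8% below in Dp44mT. In DFO it was 17.0% and 27.8%. For HEY1 the difference in Dp44mT was 2.72 in set 1 and 2.54 in set 2 (218839_at), and in DFO it was 2.65 and 2.71. JAG2 209784_s_at had its difference in Dp44mT at -1.13 in set 1 and -1.71 in set 2, and in DFO at -0.89 and -0.91. The largest disagreement between sets was that of NOTCH1 in Dp44mT.

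**Figure D3:**
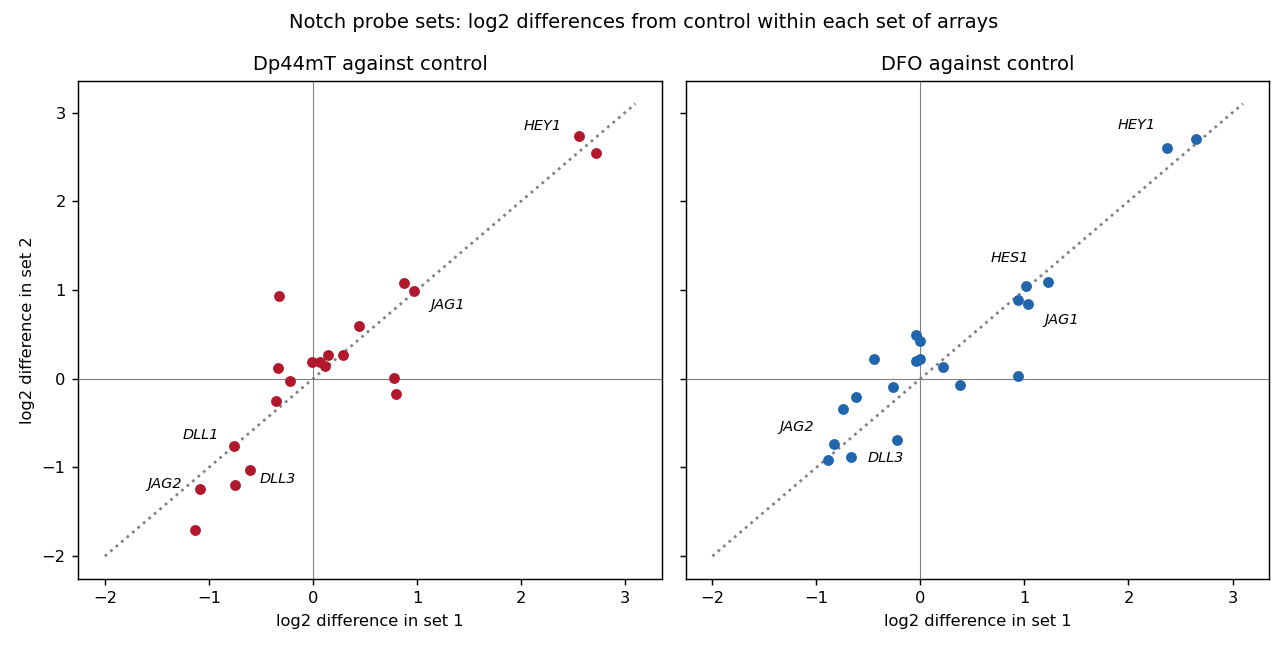
Log2 difference from control in set 2 (vertical axis) against that in set 1 (horizontal axis) for the 21 Notch probe sets, with Dp44mT on the left and DFO on the right; the dotted line marks equal values, and genes with a difference beyond 0.7 are named. HEY1 lies near 2.5 in both sets and both panels, and JAG2 is negative in both sets.

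Markers of other cells were read beside these values, since HEY1, JAG1 and DLL4 are also expressed in vessels and stroma. The summed normalized intensity of 16 fibroblast markers was 2319 and 4810 on the Dp44mT arrays, 2008 and 4041 on the DFO arrays, against 2448 and 1505 on the control arrays. That of 13 endothelial markers was 1648 and 3352 in Dp44mT, 1745 and 2941 in DFO and 1661 and 1321 in control. Both sums were thus highest on the chelator arrays of set 2. There the median difference of the fibroblast markers from control was only 0.10 in Dp44mT and -0.03 in DFO. That of the endothelial markers was 0.29 and 0.43, so the sums followed a part of each list. In set 2, DCN read 9.51 in Dp44mT, 8.92 in DFO and 5.70 in control, and POSTN 9.85, 9.26 and 6.07. COL1A2, COL3A1 and COL5A1 were also higher than control there under both chelators. In set 1 these fibroblast markers were below control under both chelators. COL5A2, COL6A1, COL6A2, COL6A3, LUM, FAP and FBN1 were lower than control in set 2. No fibroblast or endothelial marker passed limma's adjusted threshold in either chelator, and at an unadjusted p under 0.05 there were 1 of 14 fibroblast and 1 of 9 endothelial markers in Dp44mT and 1 and 2 in DFO. Of these lists, 2 fibroblast and 4 endothelial markers lay below the filter, among them CDH5 with deposited intensities from 0.02 to 12.6. The other 9 endothelial markers lay above it, among them PECAM1 with deposited intensities from 313 to 1009. The summed neuroendocrine markers were 19808 and 18956 on the Dp44mT arrays, 20966 and 20748 on the DFO arrays, against 26077 and 28356 on the control arrays, lower under both chelators without overlap. Their median difference was -0.26 in set 1 and -0.61 in set 2 in Dp44mT, and -0.13 and -0.36 in DFO. INSM1, among the brightest in control, read 12.17 and 12.68 there against 9.30 and 8.82 in Dp44mT. CHGA read 9.41 and 9.57 in control against 9.43 and 9.44 in Dp44mT, so the fall was not even. Of the 12, INSM1 and NKX2-1 fell in Dp44mT (by 3.37 and 2.35), and ENO2, also a glycolytic gene, rose in Dp44mT by 2.03 and in DFO by 1.74. Of 6 markers of non-neuroendocrine lines, EPHA2 rose in both, by 1.55 in Dp44mT and 2.02 in DFO. The part of these markers in the Notch values was not tested.

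Of 59 other pathway genes, 54 could be tested on 1 probe set each. In Dp44mT 2 rose, 2 fell and 50 did not pass, and in DFO 1 rose, 0 fell and 53 did not pass. Of all probe sets tested, 1.63% were called in Dp44mT and 0.588% in DFO. A fit with 1 probe set per gene called 569 of 16868 in Dp44mT and 185 in DFO, among them 4 and 1 of these genes. The medians were 0.15 and 0.07, against 0.01 and -0.03 over all probe sets tested. At an unadjusted p under 0.05 in limma there were 14 of the 54 in Dp44mT, where 21.5% of all probe sets had one, and 12 in DFO, where 11.1% did. In the fit with 1 probe set per gene, the like base for these genes, 4062 of 16868 had one in Dp44mT and 2251 in DFO.

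Of the called genes, TLE1 and HDAC1 were co-repressors, LFNG belonged to receptor glycosylation and ITCH to endocytosis and turnover. TLE1, a Groucho-type co-repressor that works with HES and HEY proteins, read 9.77 and 9.91 on the Dp44mT arrays, 9.89 and 9.70 on the DFO arrays, against 8.04 and 7.80 on the control arrays. It rose by 1.92 in Dp44mT (SE 0.21, adjusted p = 0.0251) and by 1.87 in DFO (SE 0.21, adjusted p = 0.0389), and no chelator array overlapped control. Its 4 other probe sets above the filter were all positive, from 0.87 to 3.37 in Dp44mT and from 0.42 to 3.01 in DFO, and the highest, 228284_at, was itself called in both. LFNG, the Lunatic fringe glycosyltransferase that adjusts which ligands a receptor answers, read 8.66 and 8.37 in Dp44mT, 9.15 and 9.11 in DFO and 10.04 and 10.13 in control. It fell in Dp44mT by 1.57 (SE 0.20, adjusted p = 0.0348) and was at -0.95 in DFO (adjusted p = 0.174). HDAC1, a histone deacetylase of many repressor complexes, fell in Dp44mT by 1.55 (SE 0.21, adjusted p = 0.0382) and was at -0.82 in DFO (adjusted p = 0.252). ITCH, an E3 ubiquitin ligase that targets Notch for degradation, rose in Dp44mT by 1.55 (SE 0.19, adjusted p = 0.0340) and was at 1.25 in DFO (adjusted p = 0.0817). Its 6 probe sets above the filter ran from -1.04 to 1.55 in Dp44mT, so they did not point one way.

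On the probe set that stood for each gene, these calls had adjusted p from 0.0251 to 0.0389 in limma. TLE1 228284_at reached 0.00974 in Dp44mT and 0.0151 in DFO. The settings followed TLE1 only on its brightest probe set, 203221_at. Over the 16 settings tried, TLE1 was called in 10 for Dp44mT and in 5 for DFO, and LFNG, HDAC1 and ITCH in Dp44mT in 6 each. On the deposited scale and with array medians subtracted, 0 of the 54 passed limma's adjusted threshold in either chelator, although at an unadjusted p under 0.05 there were 10 in Dp44mT and 2 in DFO on the deposited scale and 12 and 7 with medians subtracted. TLE1 ranged from 1.27 to 2.05 in Dp44mT, LFNG from -2.27 to -1.43, HDAC1 from -2.28 to -1.39 and ITCH from 0.90 to 1.63, with no change of sign.

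In the other steps nothing passed. RBPJ, the DNA-binding partner of the cleaved receptor, read 10.79 and 11.12 on the Dp44mT arrays, 10.87 and 11.24 on the DFO arrays, against 10.15 and 10.14 on the control arrays, with differences of 0.81 (adjusted p = 0.141) and 0.91 (adjusted p = 0.256). Its probe set 229540_at gave 1.83 (adjusted p = 0.0563) and 2.17 (adjusted p = 0.0647), and 207785_s_at gave 0.12 and 0.55. MAML3, a Mastermind-like coactivator, read 6.51 and 5.44 on the Dp44mT arrays, 7.38 and 6.20 on the DFO arrays, against 7.64 and 7.67 on the control arrays, with differences of -1.68 (adjusted p = 0.153) and -0.87 (adjusted p = 0.626). HES6, a HES family member known to promote neuronal differentiation in the mouse, was at -0.70 in Dp44mT (adjusted p = 0.139) and -0.73 in DFO (adjusted p = 0.281). HEY2, the closest relative of HEY1 in this list, was at 0.37 (adjusted p = 0.364) and 0.61 (adjusted p = 0.397). The 8 genes of proteolytic release ran from -0.61 to 1.38 in Dp44mT and from -0.38 to 0.89 in DFO, and the median of the 10 HES, HEY and feedback genes was 0.09 and -0.08.

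**Figure D4:**
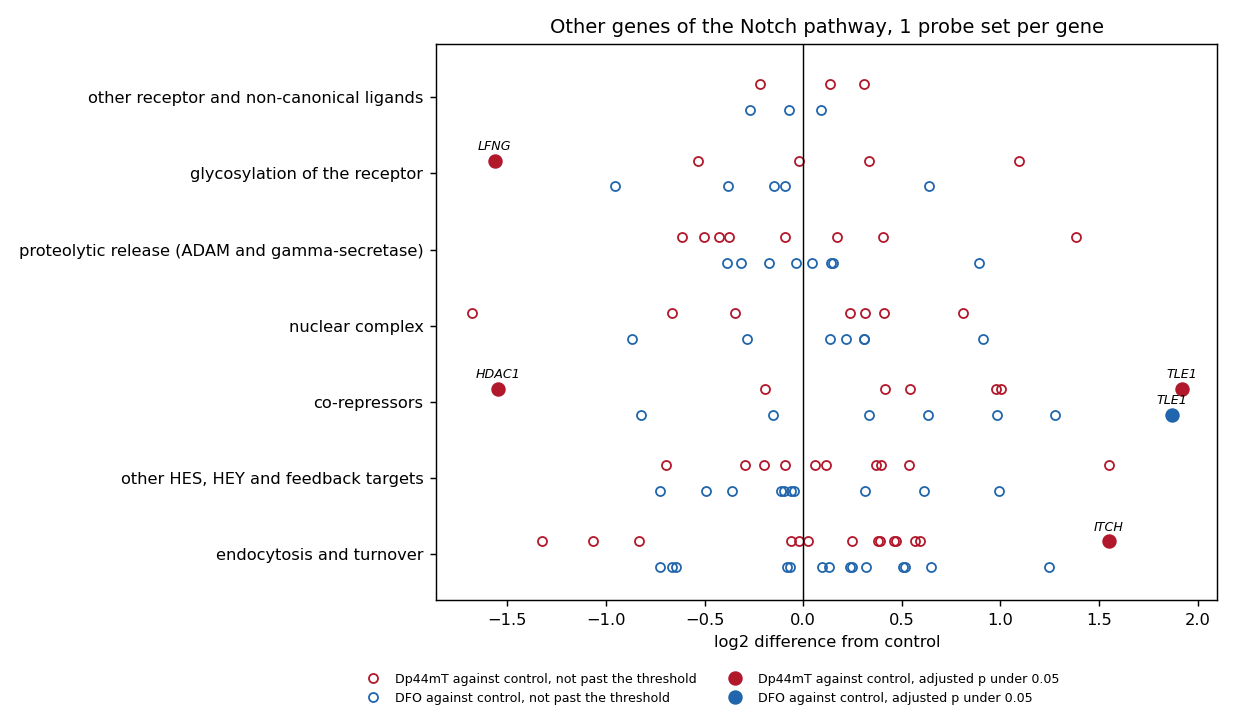
Log2 difference from control (horizontal axis) of the 54 other Notch pathway genes tested, 1 probe set per gene, by pathway step (rows); red is Dp44mT and blue is DFO, and filled points passed an adjusted p under 0.05. TLE1 is filled in both chelators at 1.92 and 1.87, ITCH, LFNG and HDAC1 in Dp44mT only, and most other points lie within 1 log2 unit of control.

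The genes most like each member in pattern were found by the root mean square difference of log2 values, each centred on its own mean, over the 6 arrays and among 32242 probe sets. Nearest to HEY1 (44783_s_at) were KLF4 (0.0994), BNIP3L (0.106) and KLF5 (0.109), which differed from control by 2.48 to 2.56 in Dp44mT and 2.33 to 2.53 in DFO. Nearest to JAG1 (209099_x_at) were CCNG2 (0.0366), CCN1 (0.0422) and KMT2C (0.0461). Nearest to HES1 (203395_s_at) were CDC42EP3 (0.151), NAV1 (0.157) and TCIM (0.166). Nearest to DLL3 (219537_x_at) were SUMO3 (0.0461), CYB5A (0.0532) and YWHAE (0.0573). A likeness over 6 arrays in 3 conditions is a description and says nothing of shared function.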

How the data were processed

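Total RNA of DMS-53 cells was extracted with TRIzol, labelled with biotin and hybridized to 6 Affymetrix U133 Plus 2.0 arrays, per the labels' protocols. The deposited values are linear probe set intensity values, and the submitters' processing notes name Affymetrix Expression Console 1.1; the summarization and normalization are not given in the sources used here. Every per-sample column was used.

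Intensities were taken as log2(intensity + 16) and quantile normalized over the 6 arrays, because their medians differed. The filter kept the 41006 of 54675 probe sets whose mean reached the 25th percentile (a log2 value of 5.55). Group means were compared with limma 3.58.1 in R 4.3.3, two-sided, with all 3 conditions in 1 model and Benjamini-Hochberg adjustment over the probe sets tested; a probe set was called at an adjusted p under 0.05. The number of arrays limits the precision, and a 95% interval typically reached 0.68 (median) to either side of the difference. Permuting 2 against 2 arrays gives no exact two-sided p under 0.333, so no permutation test was run. The calls were also tried on simulated data with changes of known size and independent noise for each array. That simulation held no difference in brightness or set, so it does not measure how the calls behave on these arrays.

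Symbols came from the platform annotation: 41097 probe sets had 1, 1801 several and 11777 none, and only single symbols were used. A pathway gene stands by its brightest probe set, and up to 4 genes per list were eligible to be named, called ones first by size, others by smallest p; values are given for 8 of the 19 eligible. The members and lists were chosen with earlier results of these data known. Promoter windows are RefSeq's (GRCh38.p14), which held 7 of the 10 genes. The alternatives were the deposited scale, medians subtracted, a pseudocount of 1, no filter, a filter at the 50th percentile, 1 probe set per gene, the set number as a block, only the 2 groups compared, each array left out, and both set 2 chelator arrays left out.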

Additional observations from a re-analysis of the deposited data

How the results depend on the processing

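The set number as a replicate block moved the probe sets called to 1243 in Dp44mT against control and 208 in DFO, against 670 and 241 without it; it left both HEY1 probe sets called in each chelator and ended the call of TLE1 in DFO (adjusted p = 0.0539). Deviations from the group mean correlated between same-numbered arrays at 0.83 for Dp44mT and DFO. The correlation was -0.33 for Dp44mT and control and -0.23 for DFO and control. The numbers were therefore not taken as pairs over all conditions, and a set difference shared by the chelators stayed in the error between them.

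Over all probe sets, the calls in Dp44mT and in DFO numbered 39 and 31 on the deposited scale, 363 and 144 with array medians subtracted, 342 and 156 with a pseudocount of 1, 1114 and 393 with the filter at the 50th percentile, and 3504 and 373 with both set 2 chelator arrays left out. With both set 2 chelator arrays left out, only the control arrays gave a spread, so calls under that setting rest on no chelator replicate. With only the 2 groups compared, DFO gave 57. Leaving out 1 array gave 0 to 607 in Dp44mT and 0 to 52 in DFO. Dp44mT against DFO gave 0 in limma under every setting, with 209 to 1368 probe sets at an unadjusted p under 0.05 over the 3 scalings.

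Notch probe sets called numbered 0 in both chelators on the deposited scale, 5 in Dp44mT with both set 2 chelator arrays left out, and 1 in DFO with 1 probe set per gene or with only the 2 groups compared; leaving out 1 array gave 0 to 2 in Dp44mT and 0 to 1 in DFO. The HEY1 increases on the deposited scale were 2.13 (218839_at) and 2.03 (44783_s_at) in Dp44mT and 2.53 and 2.21 in DFO, none past the threshold, and 44783_s_at in DFO was 2.48 (adjusted p = 0.0539) with only the 2 groups compared. With 1 array left out, 218839_at gave 2.46 to 2.88 in Dp44mT and 2.55 to 2.78 in DFO, and 44783_s_at gave 2.49 to 2.76 and 2.33 to 2.59; a lone array is then assumed to vary like the other groups. Why calls ended with 1 array left out was not tested.

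Other pathway genes called numbered 0 in both chelators on the deposited scale and with medians subtracted, 1 in Dp44mT and 0 in DFO with a pseudocount of 1 and with only the 2 groups compared, 0 in DFO with the replicate block, and 6 in Dp44mT with both set 2 chelator arrays left out; leaving out 1 array gave 0 to 1 in Dp44mT and 0 in DFO.

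Of 677 member values over the alternatives, 611 kept their direction and side of the threshold. The sign turned in 37, for 18 values that were 0.31 or less in size. On the deposited scale these were, in Dp44mT, -0.22 for NOTCH1 218902_at, -0.42 for NOTCH2 202443_x_at, -0.37 for NOTCH2 212377_s_at, -0.46 for DLL1 227938_s_at, -0.14 for DLL3 229755_x_at, -0.36 for DLL3 230568_x_at and -0.15 for HES1 203394_s_at. In DFO they were -0.032 for NOTCH1 218902_at, -0.10 for NOTCH2 202443_x_at, -0.038 for NOTCH2 210756_s_at, -0.11 for NOTCH2 212377_s_at, -0.27 for DLL1 224215_s_at and -0.22 for DLL1 227938_s_at, and in Dp44mT against DFO -0.18 for HEY1 44783_s_at. With medians subtracted they were -0.048 for NOTCH2 202443_x_at and -0.086 for DLL1 227938_s_at in Dp44mT, -0.045 for DLL1 224215_s_at in DFO and -0.037 for HEY1 44783_s_at between the chelators. With both set 2 chelator arrays left out they were -0.15 for NOTCH1 218902_at and -0.18 for DLL1 227938_s_at in Dp44mT, -0.060 for NOTCH2 210756_s_at, -0.036 for DLL1 224215_s_at and -0.21 for DLL1 227938_s_at in DFO, and 0.076 for HEY1 218839_at between the chelators. With 1 array left out, these turned sign within their ranges: in Dp44mT, NOTCH1 218902_at from -0.14 to 0.75, NOTCH3 203238_s_at from -0.42 to 0.20, DLL1 227938_s_at from -0.17 to 0.35, HES1 203394_s_at from -0.20 to 0.85 and HES1 203395_s_at from -0.34 to 0.074. In DFO they were NOTCH2 210756_s_at from -0.058 to 0.46, DLL1 224215_s_at from -0.036 to 0.26, DLL1 227938_s_at from -0.20 to 0.35 and DLL3 230568_x_at from -0.42 to 0.17, and between the chelators HEY1 218839_at from -0.22 to 0.13. The cause was not tested.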
